A study of Arabidopsis thaliana with 6 samples.

Results

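Leucine-rich repeat (LRR) receptor kinases of subfamilies X and XI are plant cell surface receptors, and 42 of their genes were chosen from Arabidopsis thaliana by locus. Of these, 20 had a probe set that the platform annotation ties to 1 gene, among 13286 genes measured in this way. The other 22 were not analysed here. They are BRI1, BRL2, BRL3, PSKR1, PSKR2, BIR1, BIR2, CLV1, BAM1, BAM2, BAM3, PXY, AT5G56040, GSO2, HAE, HSL1, HSL2, XIP1 (CEPR1), CEPR2, PEPR1, PEPR2 and RLK7. Each measured gene had 1 such probe set. The gene table names 7 of the 20, and the remaining 13 are given by locus, placed in groups by lists written from general knowledge of the family.

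Expression was measured on 6 Affymetrix arrays of sorted root cells from Col-0 seedlings grown for 5 days, 3 carrying WOX5::GFP and 3 carrying pTMO5::GFP. The homeobox gene WOX5 is active in the quiescent centre, whose few slowly dividing cells keep the stem cells around them, and TMO5 is a regulator of young vascular and xylem cells. The sample descriptions and the cell type tags give these cell types in opposite order, so groups are called WOX5 and TMO5 after the reporter in the titles. Both groups share the ecotype, the growth time and the sorting, and neither holds an unsorted control. No label ties the arrays of a group to separate cultures, and the p-values therefore reflect array-to-array spread alone, possibly of technical origin.

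These receptors carry an ectodomain of leucine-rich repeats outside the cell, a membrane-spanning segment and a kinase inside. Subfamily X holds the brassinosteroid receptors, in which an island among the repeats binds the steroid, and receptors for sulfated peptides. Subfamily XI binds small secreted peptides such as the CLE, CIF, CEP, IDA and root meristem growth factor families. On binding, most recruit a shorter LRR kinase as co-receptor, and in roots they act in stem cell maintenance, vascular patterning, the endodermal barrier and defence.

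The deposited intensities had been brought to a common scale by the authors, and array medians were 91.7 to 92.6 in WOX5 and 68.1 to 74.5 in TMO5. Each array's background level was the 95th percentile of its 27 unspiked bacterial control probe sets, and it lay between 25.2 and 40.0 in WOX5 and between 24.8 and 28.7 in TMO5. The spiked control bioB averaged 32.5 to 35.2 on WOX5 arrays, near background, and 376 to 397 on TMO5 arrays. The spiked control bioC averaged 562 to 664 on WOX5 arrays and 1101 to 1170 on TMO5 arrays. Signal from both spikes thus differed along with the reporter, and its part in the results was not tested. Of 8 markers listed for the stem cell niche, its quiescent centre included, 4 were measured. All 4 (AGL42, JKD, ACR4 and BBM) were higher in WOX5, with log2 differences from 1.08 for BBM to 3.88 for AGL42. As the list is not limited to the quiescent centre, the 4 calls do not single it out. In TMO5, 2 of 3 values of AGL42 and of JKD were within background, so the sizes of these differences are unsettled. BBM lost its call after quantile normalization, after median centring and without any array but WOX5 replicate 2 (adjusted p up to 0.13). The summed intensity of the 4 markers was 1715 to 2964 in WOX5 and 683 to 734 in TMO5. Most of it came from BBM, at 1055, 2036 and 1101 in WOX5 against 645, 666 and 585 in TMO5. Among 13 markers listed for xylem and early vascular cells 2 were measured, with sums of 873 to 1213 in WOX5 and 1206 to 1238 in TMO5. Of these, PHV was lower in WOX5 (log2 difference -1.05) and LHW did not pass (0.08). PHV lost its call without WOX5 replicate 3 (adjusted p = 0.057) and without TMO5 replicates 1 or 2 (0.067 and 0.069). The reporter genes themselves had no named probe set.

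Other cell types were thinly covered, and the part of their transcripts in the results was not tested. For the endodermis and cortex 2 of 5 markers were measured, with sums of 278 to 576 in WOX5 and 123 to 148 in TMO5, and AT1G62500 was higher in WOX5 (3.62). The other, AT1G09750, lay lower on every WOX5 array (54.8, 28.4 and 59.2 against 115, 81.5 and 122) and did not pass (-1.21; adjusted p = 0.056), so the difference between these sums comes from AT1G62500. For the pericycle and lateral root 2 of 3 were measured, at 92.5 to 100.1 against 40.8 to 46.5, and LBD16 was higher (1.23). Root hair and epidermis had 2 of 5, at 96.2 to 135 against 149 to 349, neither passing, and phloem had 1 of 5, at 29.9 to 63.0 against 56.3 to 72.4. For wounding and protoplasting 3 of 5 were measured, at 1149 to 1446 against 516 to 849, with WRKY6 higher (1.57) and WRKY53 lower. Most of these sums came from STZ, at 947, 1265 and 943 in WOX5 against 758, 494 and 412 in TMO5. STZ lay higher on every WOX5 array but did not pass (0.96; limma adjusted p = 0.059). WRKY53 was within background on all WOX5 arrays, so TMO5 was only at least 1.13-fold higher, and its adjusted p rose to 0.057 with intensity-dependent robust variances and as far as 0.11 when any array other than WOX5 replicate 2 was dropped, each time losing the call. None of the 4 root cap markers was measured, and no measured marker of any list was at 0.

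The comparison asks which peptide and brassinosteroid receptors differ in transcript level between the cells marked by WOX5 and by TMO5. BRL1 and 4 receptor kinases known here by locus (AT2G33170, AT5G25930, AT1G34110 and AT5G63930) were higher in WOX5, from 2.24-fold for AT5G63930 to at least 5.42-fold for BRL1. AT4G08850 was lower, at an intensity near background. The other 14 measured receptors did not pass a limma adjusted p of 0.05, computed over all 22746 tested probe sets. Differences are of log2 intensity, WOX5 minus TMO5, with values under 1 raised to 1, and folds are their antilogs. In sorted bulk samples, fewer cells of a type and less RNA per cell cannot be told apart.

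Of the 20 receptors, 5 (25%) were higher and 1 (5%) was lower. Among all tested probe sets 14.3% were higher and 9.49% lower, or 23.8% in either direction, against 30% of the receptors. Groups of 3 arrays did not overlap for 12 of 20 receptors (60%) and for 46.8% of all probe sets. With 20 receptors these shares stand near the background, and nothing particular to the family is read from them. At an unadjusted p under 0.05, 7 receptors (35%) were higher and 4 (20%) lower, beside 21.1% and 17.3% of all tested probe sets. The median log2 difference was 0.38 over the receptors and 0.03 over all tested probe sets. Above background on all 6 arrays lay 10 receptors, and 3 lay within it on all 6. Within WOX5, replicate 2 was the array farthest from the group's median for 10 of the 20 receptors, replicate 1 for 8 and replicate 3 for 2.

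**Figure D1:**
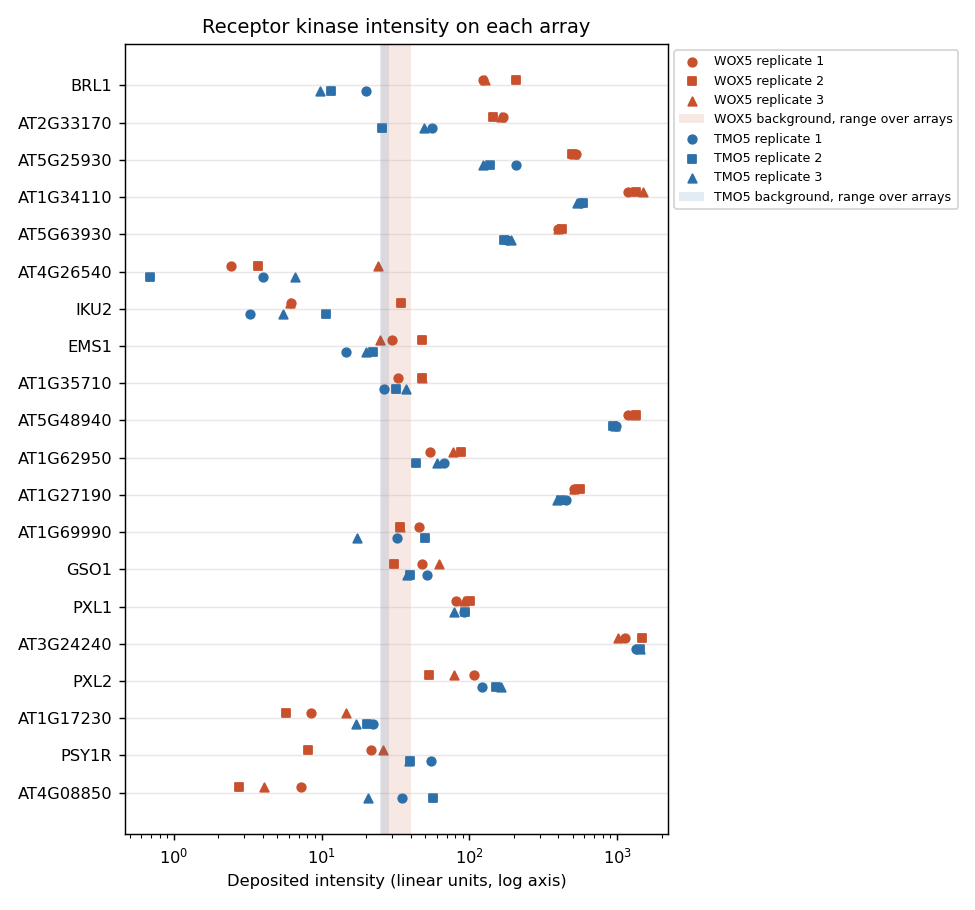
Deposited intensity of each measured receptor kinase on each array, on a log axis, with WOX5 arrays in orange, TMO5 arrays in blue and shaded bands for the range of background over the arrays of a group. BRL1 lies between 123 and 206 on WOX5 arrays and under background on TMO5 arrays, and AT4G08850 lies under background on WOX5 arrays.

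Brassinosteroid receptors were represented by BRL1 (AT1G55610), a close relative of BRI1 known from vascular and stem niche cells. Its intensity was 123, 206 and 128 in WOX5 replicates 1, 2 and 3, and 20.03, 11.6 and 9.75 in TMO5 replicates 1, 2 and 3, the order used for all values here. Every WOX5 value stood well above all 3 TMO5 values, and the TMO5 values were within background. BRL1 therefore was at least 5.42-fold higher in WOX5 (152 ± 46.7 against 13.8 ± 5.48, SD, n = 3; limma adjusted p = 0.0030). This bound sets the WOX5 mean of log2 values against the background level of the TMO5 arrays. With the highest control probe set as background it was at least 4.49-fold. The measured log2 difference was 3.49 ± 0.36 (SE), and 3.26 to 3.80 when any 1 array was left out, sizes that rest on TMO5 values within background.

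Subfamily X receptors for peptides did not pass. PSY1R (AT1G72300), named as a receptor of the sulfated peptide PSY1, had intensities of 21.7, 8.01 and 26.2 in WOX5 and 54.8, 39.4 and 39.0 in TMO5. The groups did not overlap, and 2 of the WOX5 values were within background. Its log2 difference was -1.40 ± 0.48 (SE; limma adjusted p = 0.089), and as lower it passed after median centring of the arrays (adjusted p = 0.036), after raising values under each array's 20th percentile to that level, a percentile floor (0.0099), and after removal of dim probe sets (0.034). That removal kept probe sets whose arrays in at least 1 group were all at or above background. PSY1R was kept through TMO5 alone, the group where it was higher, so this pass is no independent support. EMS1 (AT5G07280), known as the receptor that sets tapetum fate in anthers, stood at 29.99, 47.5 and 24.6 in WOX5 against 14.6, 22.2 and 19.9 in TMO5. These groups did not overlap either, but 5 of the 6 values were within background. The difference was 0.82 ± 0.31 (adjusted p = 0.11).

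A further pair of loci of this subfamily is on the list of BIR kinases, which bind co-receptors and hold them back from the receptors. AT1G27190 was bright in both groups, at 514, 556 and 512 in WOX5 and 447, 418 and 389.7 in TMO5. Each WOX5 value exceeded each TMO5 value by a small margin, with a log2 difference of 0.34 ± 0.14 (SE; limma adjusted p = 0.14). Its 95% interval, unadjusted for the number of tests, ran from -0.01 to 0.69. AT1G69990 stood at 45.8, 33.8 and 34.1 against 32.2, 49.9 and 17.3, with overlapping groups and a difference of 0.31 ± 0.41. Its values lay close to background, with 1 in each group within it. Both were below 0 with centred arrays (-0.04 and -0.07), and AT1G69990 also without TMO5 replicate 3 (-0.09).

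**Figure D2:**
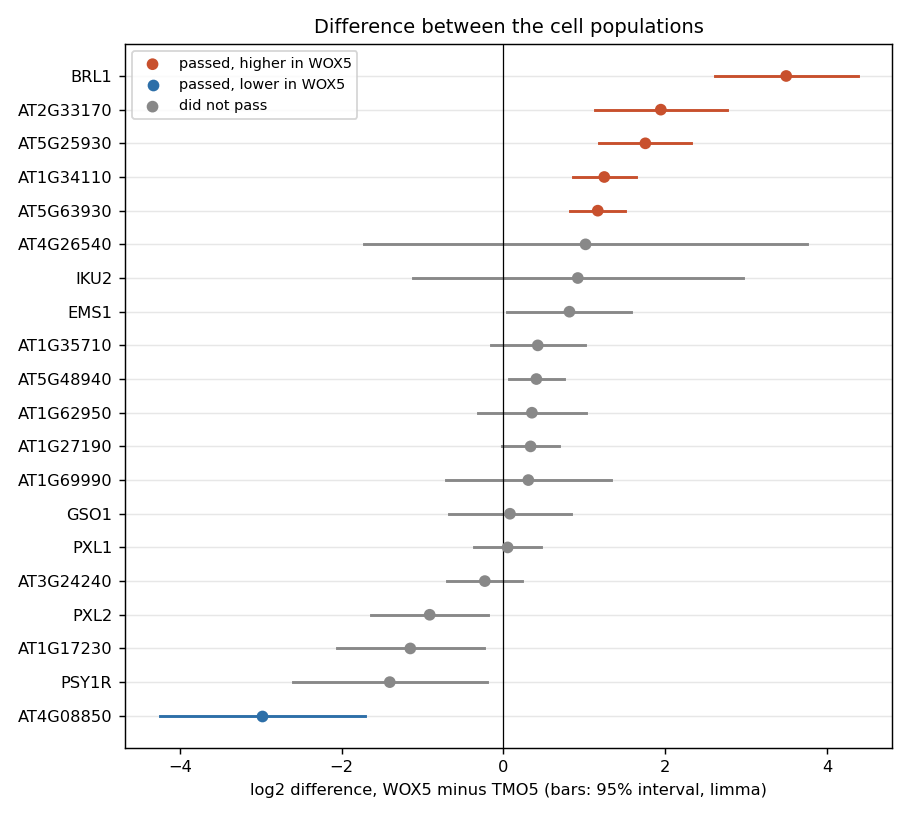
Log2 difference in intensity, WOX5 minus TMO5, of the 20 measured receptor kinases, with bars for the 95% interval of the limma fit, unadjusted for the number of tests. The 5 receptors in orange passed as higher in WOX5, AT4G08850 in blue passed as lower, and the 14 in grey did not pass.

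In subfamily XI, 2 of 7 listed receptors of CLE peptides were measured, and neither passed. PXL1 (AT1G08590) and PXL2 (AT4G28650) are relatives of PXY, the receptor through which CLE41 and CLE44 peptides act on the vascular cambium. PXL1 had intensities of 81.1, 101 and 91.3 in WOX5 and 91.6, 94.0 and 78.1 in TMO5, so its groups overlapped. The log2 difference was 0.05 ± 0.17 (SE), with a 95% interval from -0.36 to 0.46, and its sign turned with quantile normalization (-0.33). It turned also with centred arrays (-0.33), array weights (-0.02) and without WOX5 replicate 2 or TMO5 replicate 3 (-0.03 each).

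PXL2 was dimmer on every WOX5 array than on any TMO5 array, at 107, 53.6 and 79.2 against 122, 151 and 163. The log2 difference of -0.91 ± 0.29 (SE) did not pass (limma adjusted p = 0.076). The adjusted p was under 0.05, with the same direction, after quantile normalization (0.031), median centring (0.026), a percentile floor (0.040) or removal of dim probe sets (0.028), and with intensity-dependent robust variances (0.024). Whether PXL1 and PXL2 differ from each other in this respect was not tested.

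GSO1 (AT4G20140), a receptor of CIF peptides that guides the Casparian strip of the endodermis, stood at 47.8, 30.9 and 62.6 in WOX5 and at 51.5, 39.9 and 38.0 in TMO5. The groups overlapped, and the 95% interval of the log2 difference ran from -0.67 to 0.83. The difference of 0.08 ± 0.30 (SE) turned negative with quantile normalization (-0.14), centred arrays (-0.30) and without WOX5 replicate 3 (-0.15) or TMO5 replicate 3 (-0.0042). IKU2 (AT3G19700), known for its role in seed size, was within background on all 6 arrays. It stood at 6.19, 34.5 and 6.08 in WOX5 and 3.28, 10.7 and 5.49 in TMO5, which gives no usable difference.

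Listed receptors of root meristem growth factors, peptides that keep the root meristem active, had 4 of 5 loci measured. AT1G34110 was higher in WOX5, and the other 3 did not pass. The values of AT1G34110 were 1182, 1348 and 1497 on WOX5 arrays and 568, 587 and 536 on TMO5 arrays. Groups were far apart relative to their spread, at 1342 ± 158 against 564 ± 25.8 (SD, n = 3), which is 2.37-fold (limma adjusted p = 0.0053). AT5G48940 was also far above background, at 1187, 1334 and 1318 against 974, 944 and 973. Its WOX5 values were all above its TMO5 values, but the 1.33-fold difference did not pass (log2 0.41 ± 0.14, SE; adjusted p = 0.084). As higher it passed after quantile normalization (0.046), a percentile floor (0.034) or removal of dim probe sets (0.037), and with intensity-dependent robust variances (0.027), yet after median centring the difference was 0.03.

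Of the remaining loci on that list, AT3G24240 had 1136, 1466 and 1011 in WOX5 and 1341, 1423 and 1422 in TMO5. The groups overlapped, with WOX5 spread widely (1204 ± 235) and TMO5 tightly (1395 ± 46.8), and the log2 difference was -0.23 ± 0.19 (SE). AT4G26540 was within background on all 6 arrays, at 2.44, 3.73 and 24.1 in WOX5 and 4.002, 0.69 and 6.62 in TMO5. The 3 loci above background thus gave log2 differences of 1.25, 0.41 and -0.23, with 95% intervals of 0.86 to 1.63, 0.07 to 0.75 and -0.69 to 0.23. Whether they differ from each other was not tested.

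The list of HAESA-like receptors, a group known for the shedding of floral organs and for stress responses, had 1 of 4 loci measured. AT5G25930 was higher in WOX5, with intensities of 529.7, 497 and 509 against 205, 138 and 123 in TMO5. The WOX5 arrays lay close together, all TMO5 arrays were lower, and the means were 512 ± 16.4 and 156 ± 43.8 (SD, n = 3). This is a 3.37-fold difference (log2 1.75 ± 0.23, SE; limma adjusted p = 0.0058).

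Receptors of danger and immune peptides, which detect peptides released on damage or infection, had 2 of 5 listed loci measured. AT4G08850 was the 1 receptor that was lower in WOX5, at 7.29, 2.76 and 4.09 against 35.0, 56.4 and 20.4 in TMO5. Groups did not overlap, but every WOX5 value and 1 TMO5 value were within background. Its measured log2 difference was -2.98 ± 0.51 (SE; limma adjusted p = 0.013), whereas against background the TMO5 level was only at least 1.04-fold higher. With a floor at the 20th percentile of each array the difference was -0.83 and did not pass (adjusted p = 0.12). Removal of dim probe sets took AT4G08850 out of the test. AT1G35710 stood at 32.9, 47.9 and 47.9 against 26.3, 31.7 and 37.5, with overlapping groups close to background and a difference of 0.42 ± 0.23 (adjusted p = 0.25).

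For 4 loci no ligand was listed, and 2 of them were higher in WOX5. AT2G33170 had 169.7, 144 and 162 in WOX5 and 55.8, 25.4 and 49.1 in TMO5. TMO5 replicate 2 lay near background and lower than the other TMO5 arrays, and the means of 159 ± 13.03 and 43.4 ± 16.0 (SD, n = 3) gave a 3.85-fold difference (limma adjusted p = 0.012). AT5G63930 had 395, 422 and 396 against 179, 171 and 191. With little spread in either group (404 ± 15.1 and 180.3 ± 9.94), it was 2.24-fold higher in WOX5 (adjusted p = 0.0044).

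The other 2 loci without a listed ligand did not pass. AT1G62950 stood at 54.4, 87.6 and 77.5 in WOX5 against 67.8, 43.5 and 60.1 in TMO5, with overlapping groups and a log2 difference of 0.35 ± 0.27 (SE), or -0.03 with centred arrays. AT1G17230 was within background on all 6 arrays, at 8.43, 5.71 and 14.5 against 22.1, 20.4 and 16.9. The groups did not overlap, but a difference of -1.15 ± 0.37 between values within background has no settled size. With a floor at the 20th percentile it was -0.03, whereas AT1G17230 passed as lower after median centring (-1.53; adjusted p = 0.025) and without WOX5 replicate 3 (-1.51; 0.029).

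**Figure D3:**
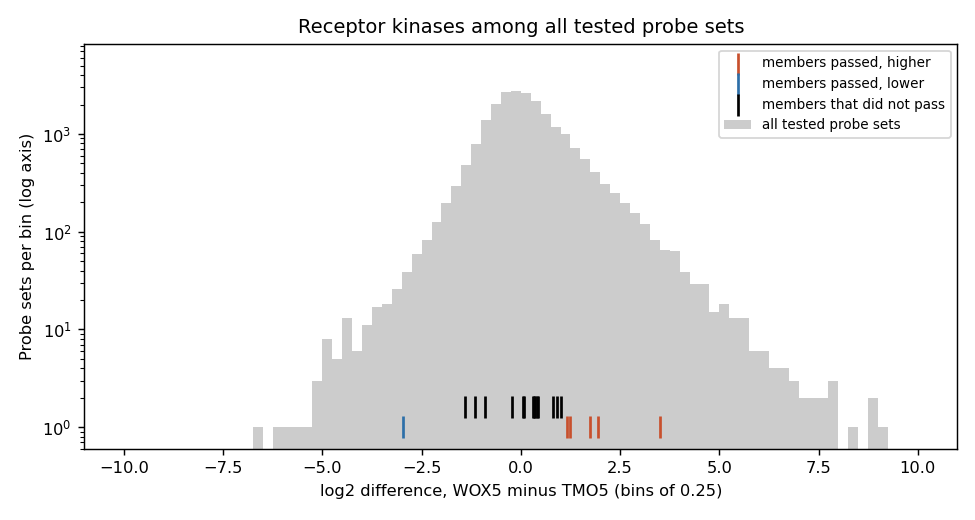
Distribution of the log2 difference, WOX5 minus TMO5, over all 22746 tested probe sets (grey bars, probe sets per bin on a log axis), with a tick for each of the 20 receptor kinases. The receptors span -2.98 to 3.49, and most of those that did not pass stand in the tall middle bins.

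Each of the 5 rises passed under every alternative run, which were 13 for each gene, among them the removal of any 1 array. In the removal of dim probe sets, BRL1 was kept through its WOX5 arrays alone, so its pass there adds no independent support. The highest adjusted p was 0.027 for BRL1, 0.034 for AT5G25930, 0.044 for AT5G63930, 0.045 for AT1G34110 and 0.046 for AT2G33170. As deposited, after quantile normalization and after median centring, the middle of all tested probe sets lay at 0.03, -0.14 and -0.35 on the log2 scale, and that of the receptors at 0.38, 0.25 and 0.0016. As deposited 5 receptors were higher and 1 lower, with quantile normalization 6 and 2, and with centred arrays 5 and 4. Of all probe sets, 11.3% were higher and 12.6% lower with quantile normalization, and 9.85% and 23.3% with centred arrays. BRL1 had 3.21 and 3.12 under these scalings, and AT5G63930, the smallest rise, 0.96 and 0.79.

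**Figure D4:**
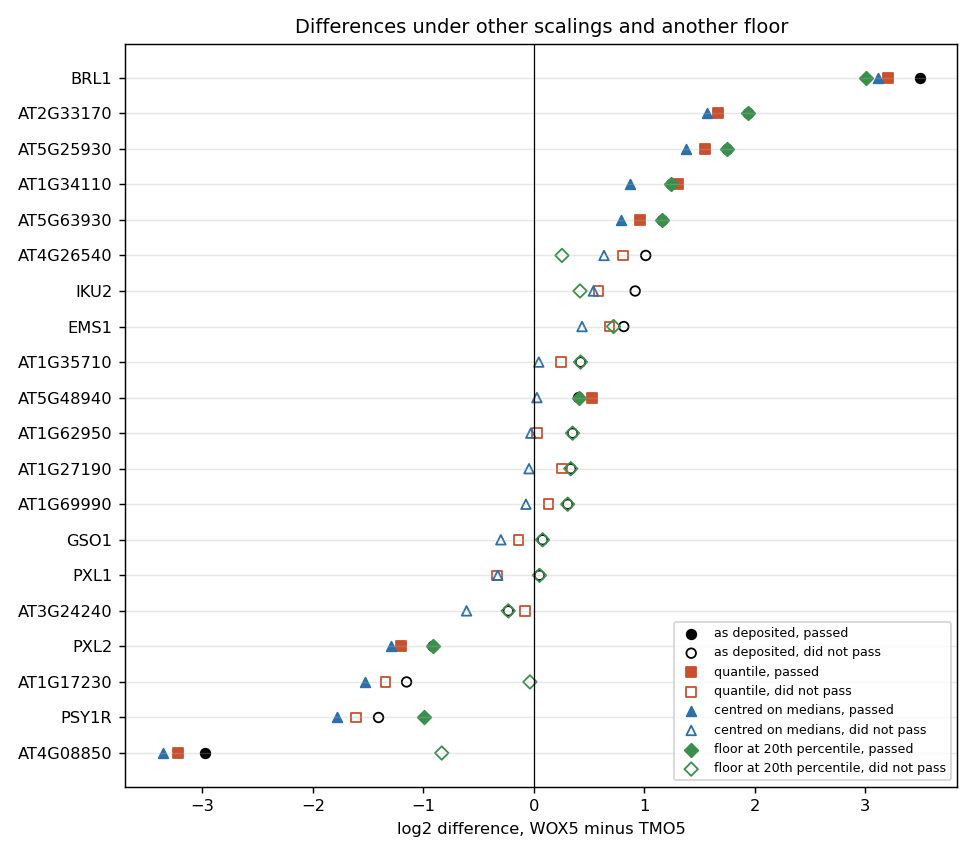
Log2 difference of each receptor kinase as deposited (black circles), with quantile normalization (orange squares), after median centring (blue triangles) and with a floor at each array's 20th percentile (green diamonds), with filled symbols where the adjusted p was under 0.05. The 5 rises at the top are filled under all 4 settings, while AT4G08850 at the bottom moves from -2.98 to -0.83 with the floor.

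Partners of these receptors were sparsely covered. Of 9 listed co-receptors of the SERK and CIK groups, 2 were measured and 1 was higher in WOX5. AT2G23950 stood at 56.0, 65.1 and 82.6 against 29.0, 24.5 and 43.2 in TMO5, a 2.14-fold difference (limma adjusted p = 0.041). This call was lost after quantile normalization, after median centring and when any array but TMO5 replicate 3 was left out (adjusted p up to 0.11). AT5G45780 had 189, 408 and 232 against 145, 138 and 123, without overlap and with WOX5 replicate 2 far above its group, and did not pass (log2 0.95 ± 0.31, SE; adjusted p = 0.081). As higher it passed after a percentile floor (0.044) or removal of dim probe sets (0.030), and with intensity-dependent robust variances (0.018).

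Among 25 listed ligand genes and the enzyme that sulfates such peptides, 6 were measured, and limma called 2 higher in WOX5 and 0 lower (0 also at an unadjusted p under 0.05). Of all tested probe sets, 14.3% were higher and 9.49% lower. At an unadjusted limma p under 0.05, 4 of the 8 measured co-receptor and ligand genes (50%) were higher and 0 lower, beside 21.1% and 17.3% of all tested probe sets. With 8 genes, nothing is read from these counts. AT5G01075 stood at 248, 508 and 178 in WOX5 against 27.6, 13.4 and 44.8 in TMO5, where 2 values were within background, with a log2 difference of 3.47 ± 0.58 (SE; limma adjusted p = 0.012). CLE41, which encodes the peptide bound by PXY, had 93.2, 38.9 and 79.9 against 21.1, 28.8 and 27.5. All WOX5 values were higher, though 1 of them and 2 TMO5 values were within background (log2 1.37 ± 0.37; adjusted p = 0.048). Its call was lost after quantile normalization, after median centring and when any array but WOX5 replicate 2 was left out (adjusted p up to 0.13).

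CLE44, which encodes the same mature peptide as CLE41, had overlapping groups near background, at 36.9, 26.0 and 22.6 against 36.5, 22.6 and 29.0 (log2 -0.05 ± 0.28, SE). CLE40, a root relative of CLV3, was within background on WOX5 arrays (-0.22 ± 0.18), and CLV3, the shoot meristem peptide, was within it on all 6 arrays. CLV3 stood at 18.2, 6.17 and 9.28 against 1.71, 20.01 and 1.10, and passed as higher without TMO5 replicate 2 (adjusted p = 0.035), a comparison of values within background. AT4G34600 had 27.5, 16.6 and 22.6 against 23.0, 22.3 and 39.4 (-0.32 ± 0.31), with all WOX5 values and 2 TMO5 values within background. None of 18 listed genes of brassinosteroid signalling and none of 12 for its synthesis or inactivation had a named probe set, so the BRL1 result has no measured partner here.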

How the data were processed

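The authors deposited linear intensity values for 22810 probe sets on 6 arrays, without detection calls. Per the labels' protocols, biotin labelling used 1 or 2 cycles. The sources used here do not give the cycles of each array or the software. Values had a trimmed mean of 250.0 on each array. From these values, log2 intensities were computed (values under 1, of which there were 1036, raised to 1) and compared on 22746 non-control probe sets by limma (lmFit, then eBayes; version 3.58.1 under R 4.3.3), with Benjamini-Hochberg adjustment at 0.05. Precision is limited by 3 arrays per group. A gene counted as within background in a group when all its arrays were at or under their background level. A fold against such a group is a bound.

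Genes were named through the platform annotation (13513 probe sets with 1 gene, 503 with several, 8730 with none) and the TAIR10.1 gene table. No coordinates or sequences are printed, since no build for the probes is named and no sequence table was used here. The receptors and lists were chosen with earlier results of these data known. Named genes are all measured receptors, all measured genes of the pathway lists and markers that passed by at least 2-fold, beside markers that define a cell type. The fit was tested on simulated data. Same-numbered arrays did not deviate together (correlations -0.05, 0.02 and 0.02). With 3 arrays per group this cannot tell whether they were handled as pairs, and the titles do not say. A block by replicate number was therefore run as an alternative.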

Additional observations from a re-analysis of the deposited data

How the results depend on the processing

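The number of receptors higher in WOX5 was 5 as deposited and 5 or 6 under every alternative. The number lower was 1 as deposited and 2 after quantile normalization, a percentile floor or removal of dim probe sets, and with intensity-dependent robust variances. It was 4 after median centring, and from 1 to 2 when 1 array was left out (2 without WOX5 replicate 3, where AT1G17230 passed). With a replicate block it was 0, since AT4G08850 had an adjusted p of 0.053, and 5 receptors were higher. The share of all probe sets that was lower moved too, from 9.49% as deposited to 12.6% (quantile), 14.3% (floor), 22.4% (dim probe sets removed), 14.6% (intensity-dependent variances), 23.3% (centring), 2.42% (block) and 3.19% to 8.79% when 1 array was left out. The share that was higher went from 14.3% to 11.3%, 17.9%, 26.4%, 18.0%, 9.85%, 7.56% and 9.24% to 12.5% in the same order. Partner genes higher in WOX5 numbered 3 as deposited, with dim probe sets removed and with array weights (16.0% of all probe sets higher). With dim probe sets removed, CLE41 was not tested and AT5G45780 newly passed. AT2G23950 and AT5G01075 were kept there through WOX5 alone. They numbered 4 with a percentile floor or intensity-dependent robust variances, and 1 with quantile normalization or centred arrays. When 1 array was left out they numbered 1 to 2. With a replicate block they numbered 0 (limma adjusted p = 0.060 for AT2G23950, 0.068 for AT5G01075 and 0.11 for CLE41). Among markers, BBM (0.089), PHV (0.051) and WRKY53 (0.10) lost the call with this block. None of the partner genes was lower under any setting (0 also at an unadjusted p under 0.05 in the limma fit as deposited). Of 253 values of single receptors under alternatives, 224 kept direction and side of the threshold, 14 newly passed, 2 lost the call and 13 changed sign, in 5 receptors that did not pass in any setting.

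The sign changes were as follows, as log2 differences. With centred arrays AT1G27190 was at -0.042, AT1G62950 at -0.026, AT1G69990 at -0.070, GSO1 at -0.30 and PXL1 at -0.33. Quantile normalization gave GSO1 -0.14 and PXL1 -0.33, and array weights gave PXL1 -0.019. When 1 array was left out, AT1G69990 ran from -0.095 to 0.67, GSO1 from -0.15 to 0.36 and PXL1 from -0.031 to 0.13. CLE44 ran from -0.25 to 0.12 (without TMO5 replicate 1), and was at 0.10, 0.0022 and 0.021 without WOX5 replicate 3, without WOX5 replicate 2 and with array weights. The cause was not tested.

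With the highest control probe set as background, the level was 49.9 in place of 33.1 in WOX5 and 33.0 in place of 27.3 in TMO5. At this level 2 TMO5 values of AT4G08850 were within background and no bound could be given. The mean over several probe sets of a gene was not run, since no receptor has more than 1. Signals near background limit AT4G08850, PSY1R, EMS1, GSO1 and CLE41, and give no usable difference for IKU2, AT4G26540, AT1G17230 and CLV3. Group and array handling cannot be told apart.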
